A study of Mus musculus with 6 samples.

Results

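The nuclear-encoded subunits of the respiratory chain were described in cultured mouse mammary tumor cells depleted of CdGAP and in control cells. The members were the protein-coding rows of the deposited table whose gene symbol starts with Nduf followed by a, b, c, s or v and a digit, is Sdha, Sdhb, Sdhc or Sdhd, starts with Uqcr, starts with Cox4 to Cox8 followed by a letter, is Cyc1, or starts with Atp5. This rule uses names and no measured value, and it found 85 of 41214 genes. They comprised 7 core and 28 accessory subunits of complex I, 4 subunits of complex II, 9 of complex III, 20 of complex IV with its tissue isoforms, and 15 of complex V. The remaining 2, Atp5s and Atp5sl, match by name only and are not usually counted as ATP synthase subunits.

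The respiratory chain of the inner mitochondrial membrane passes electrons from NADH through complex I and from succinate through complex II to ubiquinone, and on through complex III, cytochrome c and complex IV to oxygen. Complexes I, III and IV pump protons, and complex V, the ATP synthase, uses the proton gradient to make ATP. Complex II is built of nuclear-encoded subunits alone, whereas in the other complexes nuclear-encoded subunits join a few that are encoded in the mitochondrial genome.

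Total RNA was sequenced from mammary tumor explant cells. They descend from the mouse line NMuMG, which is of mammary epithelial origin, and were grown with serum, insulin and the selection drug G418. The groups were compared by genotype: Neu-NT cells with a hairpin against CdGAP (shCdGAP, 3 libraries) and Neu-NT cells with a control hairpin (shCON, 3 libraries). Neu-NT, an activated ErbB2 receptor, was therefore shared by both groups, and CdGAP, encoded by Arhgap31, switches off the GTPases Cdc42 and Rac1. The cell type label reads shCTL in all 6 samples, so the groups rest on the genotype label and the titles. No label says that a group's libraries were made from separate cultures or from more than 1 clone. The p-values therefore reflect the spread among these libraries only, and that spread may be technical.

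The libraries held 19176540 to 26824249 gene-assigned reads, of which the 85 members took 1.12 to 1.18% in shCdGAP and 1.19 to 1.21% in shCON. Arhgap31 was lower in every shCdGAP library, at 0.149, 0.826 and 0.748 FPKM against 1.19, 1.296 and 1.35 FPKM in shCON, without passing the test (adjusted p = 0.0836 at a log2 fold change of -0.56, limma). The authors' deposited table gives it a log2 fold change of -0.99 (adjusted p = 0.125, DESeq2). Replicate 1 of shCdGAP stood apart. Its Pearson correlation across genes was 0.948 with replicate 2 and 0.938 with replicate 3, against 0.996 between replicates 2 and 3. A list of 20 mitosis genes summed to 88.7 FPKM there, against 1349.5 and 1324 FPKM in replicates 2 and 3 of shCdGAP and 654 to 953 FPKM in shCON. Values without this library are given beside many of the members it moves. The epithelial keratins Krt8 and Krt18 were high in all 6 libraries (1546 to 3022 FPKM for Krt8 in shCdGAP and 1491 to 2259 FPKM in shCON), while Epcam was listed at 0 in shCdGAP and stood at 0.517 to 0.812 FPKM in shCON, and Cldn3 was listed at 0 throughout. Of the 10 epithelial markers listed, 7 were tested, and 2 were higher and 2 lower in shCdGAP at an adjusted p under 0.05 (limma). Over all tested genes 21% passed that threshold.

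The chain as a whole did not move one way. Of the 85 members, 78 passed the filter on low genes. Of these, 11 rose and 5 fell in shCdGAP at an adjusted p under 0.05 (limma on log2(FPKM + 1), adjusted over all 13483 tested genes). The 16 calls were 20.5% of the tested members, and across all tested genes percent called was 21 (9.92 higher and 11.1 lower), so the members were called at about the background rate. No member changed by 1 or more on the log2 scale, against 6.88% of all tested genes, and 6 members (7.69%) changed by 0.5 or more in either direction, against 23.2%. The median log2 fold change was 0.05, against -0.01 over all tested genes, and was -0.01 with library size scaling and -0.03 with quantile scaling, so its direction depended on the scaling. The members ranged from -0.49 for Ndufs7, an iron-sulfur core subunit of complex I, to 0.87 for Ndufa7, an accessory subunit of complex I. In bulk RNA, a change in the share of cells and a change in RNA per cell cannot be told apart.

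The groups did not overlap for 45 of the 78 members (57.7%), with shCdGAP above shCON for 28 and below it for 17, and the same held for 44.1% of all tested genes (21.8% above and 22.3% below). In the authors' deposited table, 12 members were called higher and 7 lower out of 80 with an adjusted p, where 23.8% of all genes were called. These 19 held all 16 of the limma calls and also Cox6a2, Cox8a and Uqcr11. With quantile scaling the calls were 10 higher and 11 lower, where 21.4% of all tested genes were called. With the replicate number as a block, 6 members were higher (Ndufa7, Ndufv2, Sdha, Uqcrb, Cox7c and Atp5g2) and 1 lower (Atp5d), where 18.2% of all tested genes were called.

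The number of calls depended on the libraries used, although all 16 called members kept their sign in each of the 6 fits that left out 1 library. Without shCdGAP replicate 1, which stood apart, all 16 calls held and the count was 20 higher and 8 lower, with 39.9% of all tested genes called. The 12 members it added were Cox7a2l, Cox8a, Ndufa13, Ndufa5, Ndufa6, Ndufb10, Ndufb11, Ndufb4, Ndufb8, Ndufs8, Uqcr11 and Uqcrh. Without both libraries numbered 1 the count was 23 higher and 11 lower, with 48.3% of all tested genes called. The count was 4 higher and 0 lower without shCdGAP replicate 2 (Atp5g2, Ndufa7, Ndufv2 and Sdha), with 10.9% of all tested genes called. It was 4 higher and 1 lower without shCdGAP replicate 3 (Ndufa7, Ndufv2, Sdha and Uqcrb higher, Atp5j lower), with 15.9% called. Without shCON replicate 1 the higher calls were Ndufa7, Sdha and Uqcrb, with 0 lower and 12.8% of all tested genes called, and without shCON replicate 2 or 3 only Ndufa7 was called, with 9.17% and 9.88% of all tested genes. Ndufa7 was the member called in all 6 of these fits, with an adjusted p between 0.000704 and 0.0254 (limma).

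**Figure D1:**
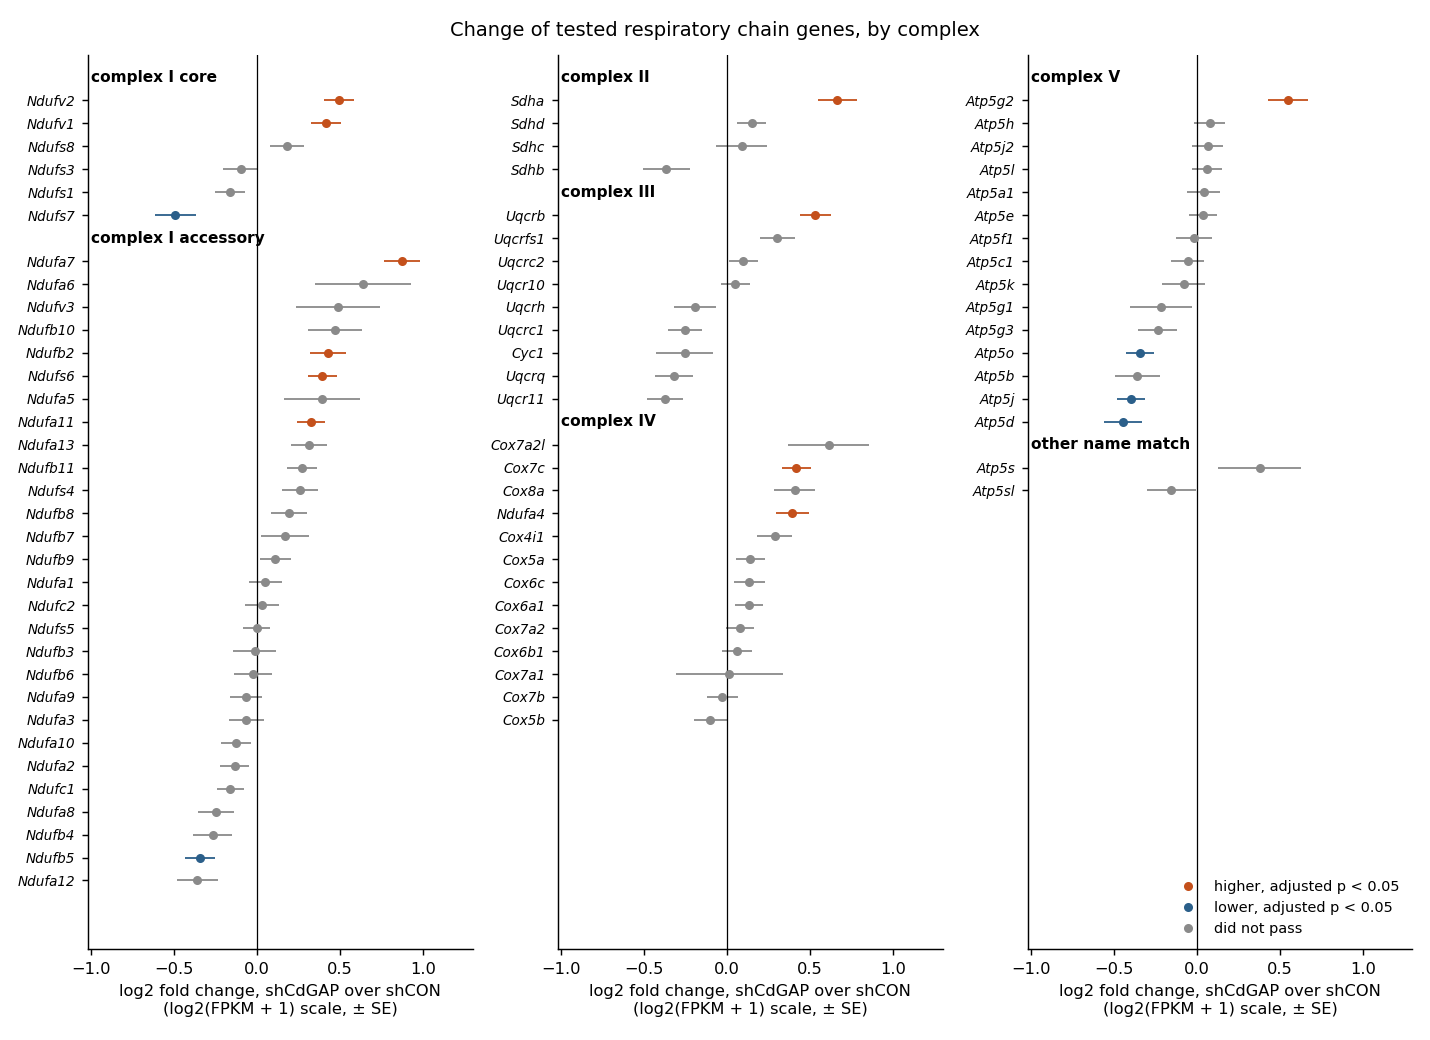
Log2 fold change of shCdGAP over shCON (x axis, log2(FPKM + 1) scale, bars ± SE of the limma fit) for the 78 tested members except 1 that is not reported by name, grouped by complex and sorted within it. Higher and lower calls stand side by side in complexes I and V, from 0.87 for Ndufa7 to -0.49 for Ndufs7, and most members lie within 0.5 of 0.

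The core of complex I holds the subunits that bind NADH, flavin, iron-sulfur clusters and ubiquinone. Of its 7 nuclear-encoded members, 2 rose, 1 fell and 4 did not pass the test, with a median log2 fold change of -0.07 that was 0.00 without shCdGAP replicate 2, -0.01 without replicate 3 and -0.14 without replicate 1. The 2 that rose work side by side at the NADH-oxidizing tip of the complex. Ndufv2, an iron-sulfur protein (ENSMUSG00000024099, chromosome 17, 66078638 to 66101559, minus strand, as for all positions here on mm10), measured 53.3, 51.4 and 57.3 FPKM in replicates 1, 2 and 3 of shCdGAP, against 37.4, 39.2 and 37.6 FPKM in shCON. The lowest shCdGAP library was above the highest shCON library, and the means were 54.0 ± 2.995 and 38.1 ± 0.999 FPKM (SD, n = 3 each; log2 fold change 0.49, SE 0.09, adjusted p = 0.0135, limma). Ndufv1, which binds the flavin and NADH (ENSMUSG00000037916, chromosome 19, 4007384 to 4012806, minus strand), had 62.6, 56.8 and 63.2 FPKM in shCdGAP and 44.6, 45.0 and 46.4 FPKM in shCON, again with no overlap (log2 fold change 0.42, SE 0.09, adjusted p = 0.0241, limma).

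Ndufs7, which carries the iron-sulfur cluster next to the ubiquinone site (ENSMUSG00000020153, chromosome 10, 80249121 to 80256794, plus strand), was the core member that fell. It had 32.0, 24.9 and 25.2 FPKM in shCdGAP and 37.3, 38.5 and 40.1 FPKM in shCON. Every shCdGAP library was below every shCON library, with replicate 1 of shCdGAP closest to the controls (log2 fold change -0.49, SE 0.12, adjusted p = 0.0382, limma). Ndufs8, another iron-sulfur subunit of the core, did not pass. It had 64.5, 71.6 and 77.7 FPKM in shCdGAP and 64.1, 62.1 and 61.9 FPKM in shCON, higher in every shCdGAP library by a small margin (log2 fold change 0.18, adjusted p = 0.277, limma). Without shCdGAP replicate 1 it was called, at a log2 fold change of 0.25.

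The accessory subunits of complex I surround the core and are needed for its assembly and stability. Of 28 members, 4 rose, 1 fell and 23 did not pass, with a median log2 fold change of 0.08 (-0.03 with quantile scaling). Ndufa7, in the peripheral arm, had the largest change of all 78 members (ENSMUSG00000041881, chromosome 17, 33824572 to 33838317, plus strand). It stood at 71.5, 60.5 and 62.5 FPKM in shCdGAP, against 37.1, 32.7 and 34.9 FPKM in shCON. The gap between the groups was wider than the spread within either, and the means were 64.8 ± 5.87 and 34.9 ± 2.22 FPKM (SD, n = 3 each; log2 fold change 0.87, SE 0.11, adjusted p = 0.00337, limma). Ndufs6, a subunit of the peripheral arm (ENSMUSG00000021606, chromosome 13, 73319838 to 73328542, minus strand), had 82.3, 78.9 and 82.3 FPKM in shCdGAP and 59.5, 63.9 and 61.4 FPKM in shCON, without overlap (log2 fold change 0.39, SE 0.09, adjusted p = 0.0248, limma). It shares 30 exon bases with Mrpl36 on the other strand, which also rose (log2 fold change 0.40, adjusted p = 0.0248, limma).

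The other 3 calls among the accessory subunits were in the membrane arm. Ndufb2 (ENSMUSG00000002416, chromosome 6, 39592574 to 39603382, plus strand) had 5.64, 4.7996 and 4.76 FPKM in shCdGAP and 3.47, 3.28 and 3.79 FPKM in shCON (log2 fold change 0.43, SE 0.11, adjusted p = 0.0392, limma). Ndufa11 (ENSMUSG00000002379, chromosome 17, 56717767 to 56722141, plus strand) had 15.4, 15.3 and 15.98 FPKM in shCdGAP and 12.1, 12.0 and 12.6 FPKM in shCON (log2 fold change 0.33, SE 0.08, adjusted p = 0.0393, limma). Ndufb2 shares 156 exon bases with Gm16272 and 146 with Braf on the other strand and 145 with Gm42420 on its own, and Ndufa11 shares 70 with Vmac on the other strand. Of these partners Braf (log2 fold change 0.17) and Vmac (0.82) were tested and did not pass (adjusted p = 0.275 and 0.0748, limma). Ndufb2 and Ndufa11 were both higher in every shCdGAP library than in any shCON library. Ndufb5 (ENSMUSG00000027673, chromosome 3, 32736990 to 32751566, plus strand), named after its values were seen as the remaining call, had 31.9, 30.1 and 34.3 FPKM in shCdGAP and 39.7, 41.8 and 41.5 FPKM in shCON (log2 fold change -0.35, SE 0.09, adjusted p = 0.0458, limma). Its groups did not overlap, but it shares 616 exon bases with Mrpl47 on the other strand, which also fell (log2 fold change -0.76, adjusted p = 0.0153, limma), and without strand-specific counting their reads cannot be told apart.

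The accessory subunits of highest mean level per length over all 6 libraries were Ndufb9, in the membrane arm, and Ndufa6, a LYR-motif protein of the peripheral arm, although in shCON Ndufa8 (124 ± 12.4 FPKM) averaged above Ndufa6 (117 ± 5.36 FPKM; SD, n = 3). Ndufb9 had 234, 213 and 229 FPKM in shCdGAP and 198, 212 and 215 FPKM in shCON, with overlap (log2 fold change 0.11, adjusted p = 0.457, limma). Ndufa6 had 296, 143 and 144 FPKM in shCdGAP and 112, 122 and 118 FPKM in shCON. Its groups did not overlap, but replicate 1 of shCdGAP alone lay far above the rest, and the difference did not pass (log2 fold change 0.64, SE 0.29, adjusted p = 0.182, limma). Without that library the log2 fold change of Ndufa6 was 0.29 and passed (adjusted p = 0.0243, limma, in a range of 0.0188 to 0.351 over its alternatives). The rest of the accessory subunits had log2 fold changes between -0.36 and 0.49 and did not pass, and the whole group spanned 5.07 to 225 FPKM on average in shCdGAP and 3.51 to 208 FPKM in shCON. Among them Ndufa5 (0.39) and Ndufb10 (0.47) stood at 0.64 and 0.63 without shCdGAP replicate 1 and were then called. Ndufv3 (0.49) stood at 0.20 without that library and was not called.

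**Figure D2:**
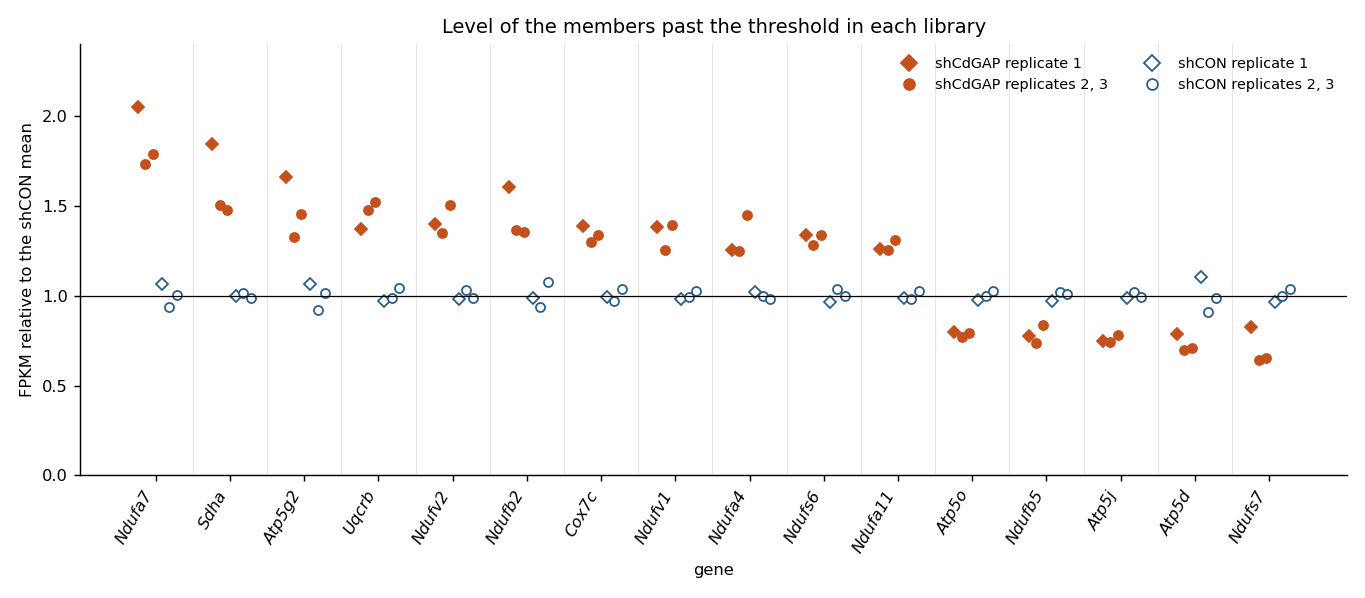
FPKM of each of the 16 called members in every library, relative to the shCON mean of that gene (y axis, linear, from 0; diamonds are replicate 1 and circles replicates 2 and 3, filled for shCdGAP and open for shCON). The groups are apart for every gene shown, and replicate 1 of shCdGAP lies above replicates 2 and 3 for Ndufa7, Sdha, Atp5g2 and Ndufb2 and nearest to shCON for Ndufs7.

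Complex II, succinate dehydrogenase, also serves the TCA cycle. Of its 4 members only Sdha, the flavoprotein that oxidizes succinate, passed (ENSMUSG00000021577, chromosome 13, 74322254 to 74350280, minus strand). Sdha had 88.8, 72.4 and 71.1 FPKM in shCdGAP and 48.2, 48.8 and 47.5 FPKM in shCON. The shCON libraries were within 0.659 FPKM (SD) of their mean of 48.2 FPKM, and the shCdGAP libraries averaged 77.4 ± 9.87 FPKM, with replicate 1 the highest (n = 3 each; log2 fold change 0.67, SE 0.12, adjusted p = 0.0111, limma). Sdhd, a membrane anchor with the highest level of the complex, had 147, 142 and 156 FPKM in shCdGAP and 131, 136 and 133 FPKM in shCON. Its groups were apart by a small margin and it did not pass (log2 fold change 0.15, adjusted p = 0.294, limma). The iron-sulfur subunit Sdhb averaged 44.6 ± 7.498 FPKM in shCdGAP and 57.3 ± 2.51 FPKM in shCON (log2 fold change -0.37, adjusted p = 0.124, limma; -0.44 and called with quantile scaling, adjusted p = 0.0439 in a range of 0.0363 to 0.315 over its alternatives), with a log2 fold change of -0.24 without shCdGAP replicate 1. Sdhc, the other anchor, overlapped (log2 fold change 0.09, adjusted p = 0.727, limma, and -0.06 without that library), so the 4 genes of this complex, which are all nuclear, did not share a direction.

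In complex III, which passes electrons from ubiquinol to cytochrome c, 1 of 9 members rose and 8 did not pass, with a median log2 fold change of -0.19. Without shCdGAP replicate 1 the median was -0.08 and the calls were 1 higher and 2 lower (Uqcr11 and Uqcrh), and without replicate 2 the median was -0.12. Uqcrb, a small subunit next to a ubiquinone site (ENSMUSG00000021520, chromosome 13, 66900617 to 66905378, minus strand), had 73.6, 79.4 and 81.7 FPKM in shCdGAP and 52.2, 53.1 and 55.9 FPKM in shCON. The groups did not overlap, and replicate 1 of shCdGAP was the lowest of its group (log2 fold change 0.53, SE 0.09, adjusted p = 0.0109, limma). Cyc1, the cytochrome c1 that hands the electron on, had 153, 207 and 239 FPKM in shCdGAP and 236, 232 and 235 FPKM in shCON. Only replicates 1 and 2 of shCdGAP lay below the controls, and the spread within shCdGAP was 43.4 FPKM (SD) against 1.89 FPKM in shCON (log2 fold change -0.26, adjusted p = 0.353, limma; -0.08 without replicate 1). Uqcr10, a small subunit, had 184, 168 and 177 FPKM in shCdGAP and 173, 165 and 173 FPKM in shCON and overlapped (log2 fold change 0.05, adjusted p = 0.727, limma). The Rieske protein Uqcrfs1 stood at a log2 fold change of 0.30 and the small subunit Uqcr11 at -0.37, and neither passed (adjusted p = 0.0977 and 0.0593, limma). Uqcr11 passed with library size, TMM and quantile scaling and without shCdGAP replicate 1, with an adjusted p between 0.0135 and 0.200 over its alternatives, and in the authors' deposited table (adjusted p = 0.0343). No member of complex III fell by limma, where 3 were lower at an unadjusted p under 0.05, while limma-voom called 0 lower and the authors' deposited table called 1 lower.

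Complex IV, cytochrome c oxidase, reduces oxygen. Of its 20 members 13 passed the filter, 2 rose, 0 fell and 11 did not pass, and the median log2 fold change was 0.13 (0.07 with quantile scaling). The 13 fold changes ran from -0.10 to 0.61. In 8 of the 13 members shCdGAP lay above shCON without overlap, against 21.8% of all tested genes. At an unadjusted p under 0.05 limma gave 5 higher and 0 lower, limma-voom called 2 higher and 0 lower, and the authors' deposited table called 3 higher and 0 lower of the 13. Cox7c, a small subunit (ENSMUSG00000017778, chromosome 13, 86044816 to 86046904, minus strand), had 94.5, 88.6 and 91.0 FPKM in shCdGAP and 67.7, 66.2 and 70.6 FPKM in shCON (log2 fold change 0.42, SE 0.09, adjusted p = 0.0204, limma). Ndufa4, once assigned to complex I and now counted as a subunit of complex IV (ENSMUSG00000029632, chromosome 6, 11900292 to 11907497, minus strand), had 379, 378 and 438 FPKM in shCdGAP and 309, 302 and 296 FPKM in shCON (log2 fold change 0.39, SE 0.10, adjusted p = 0.0392, limma). Both were apart between the groups, and the call on Ndufa4 was lost with quantile scaling (log2 fold change 0.20, adjusted p = 0.159, in a range of 0.00857 to 0.159 over its alternatives).

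Several subunits of complex IV have isoforms made in different tissues, and these cells expressed the widespread form of each. Cox8a had the highest mean level of all members in shCdGAP, with 503, 566 and 576 FPKM, against 444, 363 and 436 FPKM in shCON. The groups did not overlap, and the difference missed the threshold (log2 fold change 0.41, SE 0.12, adjusted p = 0.0618, limma), while the authors' deposited table called it (log2 fold change 0.40, adjusted p = 0.0338). Without shCdGAP replicate 1 it was called, at a log2 fold change of 0.47. Cox6b1 was similar in both groups, at 372, 358 and 396 FPKM in shCdGAP and 355, 355 and 372 FPKM in shCON (log2 fold change 0.06, adjusted p = 0.697, limma). Cox4i1 had 212, 204 and 247 FPKM in shCdGAP and 185, 175 and 181 FPKM in shCON, without overlap and short of the threshold (log2 fold change 0.29, adjusted p = 0.116, limma). Cox6a1 had 248, 237 and 245 FPKM in shCdGAP and 227, 217 and 222 FPKM in shCON, also without overlap (log2 fold change 0.13, adjusted p = 0.330, limma). Cox7a2 at 166, 161 and 175 FPKM in shCdGAP, against 158, 159 and 159 FPKM in shCON, and Cox7b at 134, 118 and 127 FPKM in shCdGAP, against 131, 129 and 127 FPKM in shCON, had log2 fold changes of 0.08 and -0.03 that did not pass (adjusted p = 0.575 and 0.868, limma).

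Cox7a2l, a relative of Cox7a2 that serves in joining complexes III and IV into supercomplexes, had 222, 121 and 126 FPKM in shCdGAP and 104, 95.5 and 94.4 FPKM in shCON. As for Ndufa6, the groups were apart but replicate 1 of shCdGAP was far above the other shCdGAP libraries (log2 fold change 0.61, SE 0.24, adjusted p = 0.134, limma). Without that library its log2 fold change was 0.33 and passed (adjusted p = 0.0182, limma, in a range of 0.00459 to 0.303 over its alternatives).

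The muscle, lung and testis forms were at or near 0. Cox8b, the muscle form of Cox8a, Cox8c, a testis form, and Ndufa4l2, a relative of Ndufa4, had no reads in any library. Cox4i2, the lung form of Cox4i1, had 0, 0 and 0.102 FPKM in shCdGAP and 0, 0.185 and 0.0474 FPKM in shCON. Cox6b2, a testis form, had 0, 0.0822 and 0.0363 FPKM in shCdGAP and 0, 0 and 0.0337 FPKM in shCON. These values rest on at most 4 reads a library and show no difference at this depth. Cox7a1, the muscle form of Cox7a2, passed the filter at 3.24, 1.502 and 0.774 FPKM in shCdGAP and 2.13, 1.299 and 1.54 FPKM in shCON, from 7 to 27 reads a library, and its groups overlapped (log2 fold change 0.01, adjusted p = 0.981, limma; -0.32 without shCdGAP replicate 1).

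A low level of a further pair of isoforms was seen mainly in shCON. Cox6a2, the heart and skeletal muscle form of Cox6a1, had 0.0665, 0 and 0.0612 FPKM in shCdGAP, from 1, 0 and 1 reads, and 0.551, 0.553 and 0.341 FPKM in shCON, from 7, 10 and 6 reads. Cox7b2, a testis form of Cox7b, had 0.0807, 0 and 0 FPKM in shCdGAP, from 1, 0 and 0 reads, and 0.478, 0.335 and 0.276 FPKM in shCON, from 5, 5 and 4 reads. Both had their lowest shCON value above their highest shCdGAP value, but neither passed the filter on low genes. With no filter, where 11.2% of all genes were called, both were called lower, at log2 fold changes of -0.50 for Cox6a2 and -0.41 for Cox7b2 on the log2(FPKM + 1) scale. The authors' deposited table gives Cox6a2 an adjusted p of 0.0112 at a log2 fold change of -2.05 (SE 0.66). A list of 7 muscle markers moved with it: their summed level was 4.76 to 9.14 FPKM in shCdGAP and 14.7 to 23.1 FPKM in shCON. Nearly all of that sum was Tnnt2 (9.14, 4.76 and 5.22 FPKM in shCdGAP, 23.1, 15.03 and 14.7 FPKM in shCON), Ckm, Myh1 and Actc1 were at 0 throughout, and the part of such markers in the isoform levels was not tested.

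**Figure D3:**
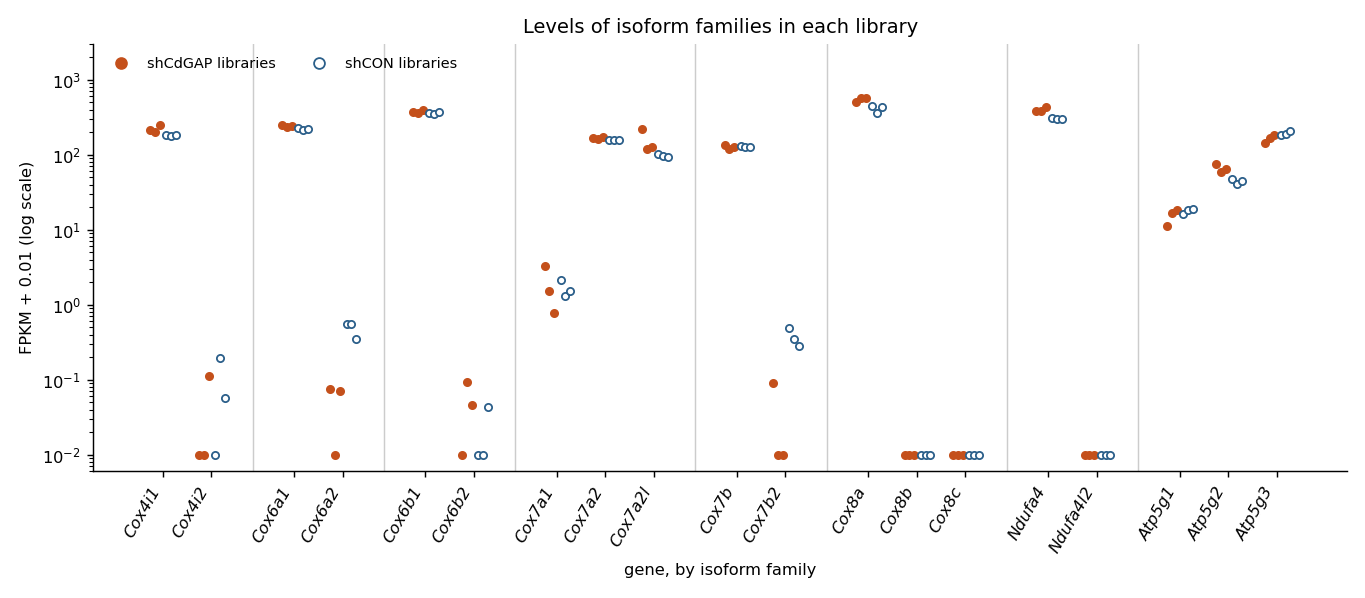
Level of each isoform in every library (y axis, FPKM + 0.01 on a log scale; filled points are shCdGAP and open points shCON), grouped by isoform family with the library order 1, 2, 3 in each group. The widespread forms of complex IV lie between 94.4 and 576 FPKM and the Atp5g genes between 11.3 and 205 FPKM, with Cox7a1 near 1 FPKM, Cox6a2 and Cox7b2 under 1 FPKM and lower in shCdGAP, and the lowest row holds values of 0.

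In complex V 1 of 15 members rose, 3 fell and 11 did not pass, and the median log2 fold change of -0.06 turned to 0.02 without shCdGAP replicate 1 and to 0.00 without replicate 2. The 3 that fell sit in the central and peripheral stalks that couple the proton-driven rotor to the catalytic head. Atp5d, the delta subunit of the central stalk (ENSMUSG00000003072, chromosome 10, 80138632 to 80145818, plus strand), had 105, 93.3 and 94.8 FPKM in shCdGAP and 148, 122 and 132 FPKM in shCON (log2 fold change -0.44, SE 0.11, adjusted p = 0.0387, limma). Atp5j, a peripheral stalk subunit (ENSMUSG00000022890, chromosome 16, 84827866 to 84835625, minus strand), had 34.0, 33.8 and 35.6 FPKM in shCdGAP and 45.0, 46.5 and 45.4 FPKM in shCON (log2 fold change -0.40, SE 0.08, adjusted p = 0.0217, limma). Atp5o, the oligomycin sensitivity protein that joins the stalk to the head (ENSMUSG00000022956, chromosome 16, 91925214 to 91931687, minus strand), had 53.9, 52.1 and 53.6 FPKM in shCdGAP and 66.0, 67.4 and 69.6 FPKM in shCON (log2 fold change -0.34, SE 0.08, adjusted p = 0.0353, limma). In each of the 3 genes the groups were apart, and for Atp5j and Atp5o the libraries of a group lay within 1.81 FPKM (SD) of their mean. Atp5j shares 397 exon bases with Gabpa on the other strand, which was lower in every shCdGAP library without passing (log2 fold change -0.31, adjusted p = 0.0507, limma), and without strand-specific counting their reads cannot be told apart. Atp5o shares 356 with Gm15976, Atp5d 68 with Cbarp and Uqcrb 50 with Gm10767, all on the other strand and not tested.

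The 3 genes Atp5g1, Atp5g2 and Atp5g3 encode the same mature c subunit of the rotor ring and differ in their import signals. Atp5g2 (ENSMUSG00000062683, chromosome 15, 102662864 to 102672352, minus strand) had 74.3, 59.3 and 65.03 FPKM in shCdGAP and 47.7, 41.3 and 45.3 FPKM in shCON and rose (log2 fold change 0.55, SE 0.12, adjusted p = 0.0241, limma). Atp5g3, the most abundant of the set, had 146, 166 and 182 FPKM in shCdGAP and 183, 192 and 205 FPKM in shCON, lower without overlap but short of the threshold (log2 fold change -0.24, adjusted p = 0.211, limma; -0.37 and adjusted p = 0.0459 with quantile scaling, in a range of 0.0459 to 0.482 over its alternatives; -0.15 without shCdGAP replicate 1). Atp5g1 had 11.3, 16.9 and 18.3 FPKM in shCdGAP and 16.2, 18.5 and 18.9 FPKM in shCON and overlapped (log2 fold change -0.22, adjusted p = 0.466, limma; -0.02 without shCdGAP replicate 1). The c subunit genes thus differed in direction among themselves in these point estimates, and the differences between them were not tested. The head subunits were the most abundant members of the complex. Atp5b, the catalytic beta subunit, had 354, 424 and 482 FPKM in shCdGAP and 555, 520.2 and 528 FPKM in shCON, below without overlap and not called (log2 fold change -0.36, adjusted p = 0.115, limma). Atp5a1, the alpha subunit of the same head, had 285, 297 and 331 FPKM in shCdGAP and 304, 292 and 291 FPKM in shCON, with overlap (log2 fold change 0.04, adjusted p = 0.805, limma). Outside the complexes, neither Atp5s (log2 fold change 0.38) nor Atp5sl (-0.15) passed (adjusted p = 0.339 and 0.520, limma), and without shCdGAP replicate 1 they stood at 0.09 and -0.29.

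The members of several chromosomes shared a direction, whichever complex they belong to. This comparison was added after the data were seen. All 6 tested members on chromosome 17 had positive log2 fold changes (0.33 to 0.87), and so did all 6 on chromosome 13 (0.26 to 0.67), all 4 on chromosome 19 (0.18 to 0.42) and all 3 on chromosome 8 (0.17 to 0.31). All 5 on chromosome 10 (-0.49 to -0.36) and all 3 on chromosome 16 (-0.40 to -0.27) were negative. So were all 3 on chromosome 3 (-0.35 to -0.02) and all 4 on chromosome 4 (-0.37 to -0.004). The 6 on chromosome 13 come from 4 complexes (Ndufs4, Ndufs6, Sdha, Uqcrb, Uqcrfs1 and Cox7c) and the 5 on chromosome 10 from complexes I, III and V (Ndufs7, Ndufa12, Uqcr11, Atp5b and Atp5d). The groups were apart for all members on chromosomes 10, 13, 16, 17 and 19 and for 2 of 3 on chromosome 8, against 44.1% of all tested genes. These chromosomes were picked because their members shared a sign in the same libraries. The higher share is therefore partly set by that choice and is no separate test. On these 6 chromosomes the signs held under each alternative run, scalings and left-out libraries included. The groups were apart for 2 of 3 members on chromosome 3 and 1 of 4 on chromosome 4. There the signs did not all hold when shCdGAP replicate 1 was left out.

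Other genes of chromosomes 8, 10, 13, 16, 17 and 19 were shifted in the same direction as the members. Over 9303 other tested genes that averaged 3 FPKM or more, the median log2 fold change was 0.35 on chromosome 17, 0.27 on chromosome 13, 0.25 on chromosome 19 and 0.21 on chromosome 8, and -0.21 on chromosome 10 and -0.27 on chromosome 16. It was -0.15 on chromosome 4, but on chromosome 3 the other genes were not shifted (median -0.01, 49.3% positive). On chromosome 17, 82.8% of these other genes were positive and 29.8% were called higher, whereas on chromosome 16 only 21.9% were positive and 17.9% were called lower. On these 2 chromosomes the shift was present in each shCdGAP library. On chromosome 17 the median of the other genes, relative to the shCON mean, was 0.31, 0.41 and 0.41 in shCdGAP replicates 1, 2 and 3, and -0.01, 0.00 and 0.01 in the shCON libraries. On chromosome 16 it was -0.28, -0.25 and -0.22 in shCdGAP, and -0.03, 0.03 and 0.01 in shCON.

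**Figure D4:**
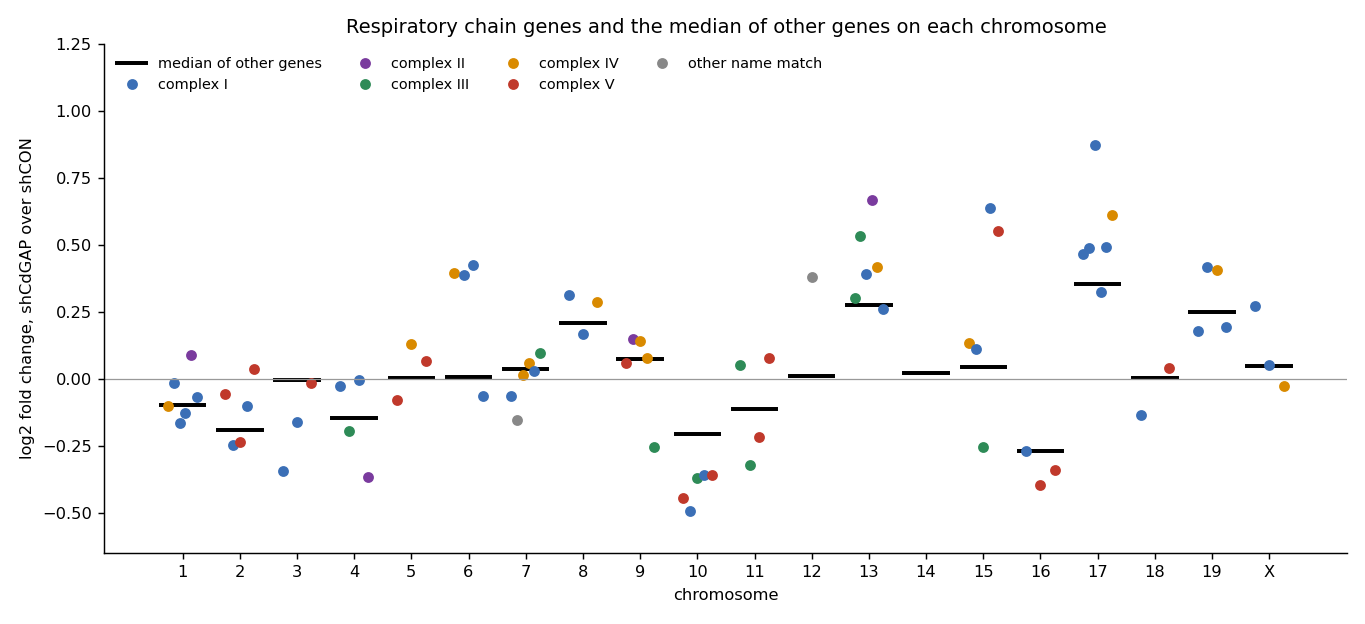
Log2 fold change of shCdGAP over shCON (y axis) of the 78 tested members by chromosome (x axis), coloured by complex, with a black bar at the median of the other tested genes on that chromosome. Members on chromosomes 13, 17 and 19 lie above 0 with their chromosome's bar and members on 10 and 16 below 0 with theirs, whichever complex they belong to, while chromosomes 6 and 15 hold members far from their bar.

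Across the 78 members the fold change correlated with the median of the other genes on its chromosome (Pearson r 0.80, Spearman rho 0.80) and with the median of the other genes within 10 Mb (r 0.81, rho 0.81). These are descriptions over genes, which share libraries and, on a chromosome, the same median. Within 5 Mb r was 0.74. Taken library by library, as the difference from the shCON mean, r with the neighbours was 0.55, 0.84 and 0.79 for shCdGAP replicates 1, 2 and 3. Subtracting the neighbours' median took the members' median absolute log2 fold change down to 0.11, against 0.21 without it. The 9303 other genes correlated at r 0.26 with the median of their own chromosome, where each gene is part of the median, and their fold changes were more spread (SD 0.61, against 0.30 for the members).

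All 16 called members had the sign of their chromosome's median and 15 that of their neighbours. Among all 78 tested members, called or not, 66 and 62 did. Of the 9303 other genes, 5892 had the sign of their own chromosome's median. The chromosome median was near 0 for Ndufb5 (-0.01), Ndufa4 and Ndufb2 (0.01) and Atp5g2 (0.04), so for these its sign says little. Of the 11 that rose, 8 lie on chromosomes 13, 17 or 19, and of the 5 that fell, 4 lie on chromosomes 10 or 16. These chromosomes were picked from the same fold changes, so the counts are descriptions only. Ndufa4 lies on chromosome 6, whose other genes had a median of 0.01, but its 25 neighbours within 10 Mb had a median of 0.51, above the 0.39 of Ndufa4 itself. Atp5g2 was the exception, with 0.55 beside a neighbours' median of -0.03. Ndufa7 and Sdha exceeded their neighbours' medians of 0.35 and 0.20 by 0.52 and 0.47. Arhgap31 lies on chromosome 16 as well, and its log2 fold change of -0.56 was beside a chromosome median of -0.27. That median comes from genes of higher level, and at the low level of Arhgap31 the log2(FPKM + 1) scale shrinks a change. In the authors' deposited table its log2 fold change was -0.99.

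**Figure D5:**
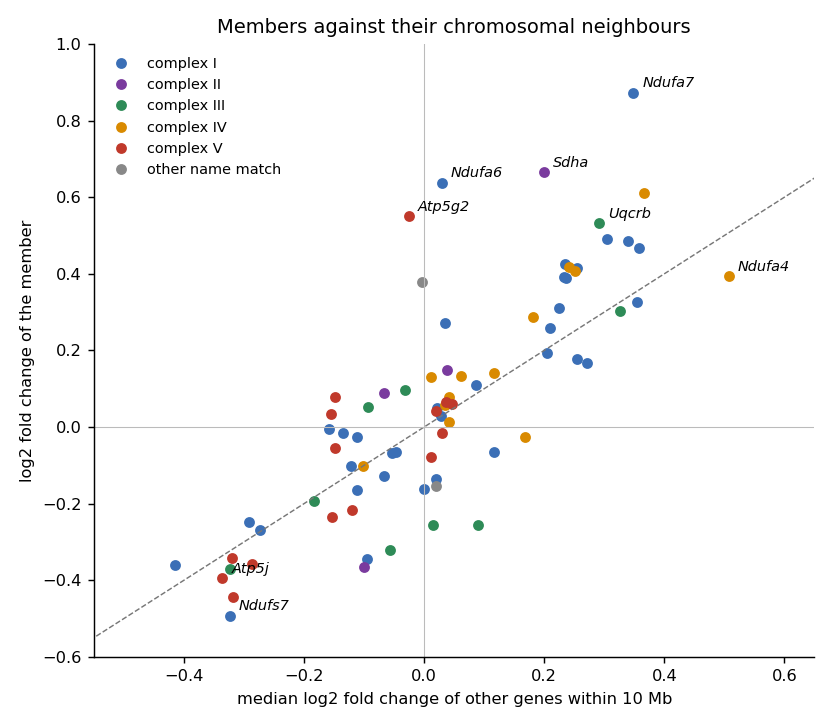
Log2 fold change of each tested member (y axis) against the median log2 fold change of other tested genes within 10 Mb (x axis), coloured by complex, with the line of equality dashed. Points rise along the line (r 0.81), with Atp5g2, Ndufa6, Ndufa7 and Sdha above it.

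Promoters of 4 members on these chromosomes are shown because the members on each moved together, Ndufa7 and Sdha upward and Ndufs7 and Atp5j downward. They were read from RefSeq on GRCm38.p6, each 5′ to 3′ on the gene's strand from 250 bases before a listed start. Ndufa7 and Atp5j have 2 listed starts each. The start with the most motif matches was shown, so the choice favoured a match. Matches to a motif are in capitals. They are the core letters of the YY1 motif, AANATGGCG, in Ndufa7 and Atp5j, and the longer YY1 letters (AAGATG and then GCGGC) in Ndufs7. In Sdha they are the NRF1 letters (GCGCA, any base and then GCGC). The stretches are chr17:33824395-33824674 on the plus strand for Ndufa7, chr13:74350211-74350490 on the minus strand for Sdha, chr10:80249199-80249483 on the plus strand for Ndufs7 and chr16:84834947-84835226 on the minus strand for Atp5j. NRF1 and YY1 are transcription factors known to act on nuclear genes of the respiratory chain.
Ndufa7: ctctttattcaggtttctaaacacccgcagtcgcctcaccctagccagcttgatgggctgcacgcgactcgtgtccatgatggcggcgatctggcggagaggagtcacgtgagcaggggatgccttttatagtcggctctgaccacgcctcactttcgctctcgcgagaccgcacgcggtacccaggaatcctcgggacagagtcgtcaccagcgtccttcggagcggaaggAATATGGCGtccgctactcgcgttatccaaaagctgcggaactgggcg
Sdha: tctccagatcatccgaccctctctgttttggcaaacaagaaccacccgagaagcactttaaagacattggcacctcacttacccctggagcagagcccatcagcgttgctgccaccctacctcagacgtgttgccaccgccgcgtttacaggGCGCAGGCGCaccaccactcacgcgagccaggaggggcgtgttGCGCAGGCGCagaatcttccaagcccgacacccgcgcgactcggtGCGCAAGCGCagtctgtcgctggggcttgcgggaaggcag
Ndufs7: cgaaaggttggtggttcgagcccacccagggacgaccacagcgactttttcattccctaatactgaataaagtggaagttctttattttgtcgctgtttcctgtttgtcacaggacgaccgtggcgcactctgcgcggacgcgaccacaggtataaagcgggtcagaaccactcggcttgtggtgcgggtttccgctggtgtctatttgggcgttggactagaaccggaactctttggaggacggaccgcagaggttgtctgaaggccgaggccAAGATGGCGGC
Atp5j: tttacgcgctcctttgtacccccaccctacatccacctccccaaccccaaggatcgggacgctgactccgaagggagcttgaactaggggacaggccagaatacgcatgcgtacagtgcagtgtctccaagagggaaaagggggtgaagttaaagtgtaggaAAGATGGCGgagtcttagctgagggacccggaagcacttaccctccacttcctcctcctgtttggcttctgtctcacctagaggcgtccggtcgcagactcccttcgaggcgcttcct

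Sdha holds 3 NRF1 matches in this window, at bases -98, -55 and -10 from its start, Ndufa7 a YY1 core match at -18, Atp5j at -88, and Ndufs7 the longer YY1 match at 25. So the YY1 core letters stood before a listed start of a gene that rose (Ndufa7) and of a gene that fell (Atp5j). In both genes the match lies inside the GENCODE M21 bounds of the gene and not before them. Of the 85 members 69 were found in the promoter table. Searched on both strands over 300 bases, the NRF1 letters were in 17 of the 69 (24.6%), against 5.19% of the promoters of all 27025 genes in the table. The YY1 letters were in 5 (7.25%, against 0.755% of all), and their core, which overlaps them, in 11 (15.9%, against 2.76%). The ETS letters CCGGAAGT were in 5 (7.25%, against 4.31%) and the ESRRA letters TCAAGGTCA in 2 (2.90%, against 0.466%).

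Members with a match included genes that rose and genes that fell. Those with an NRF1 match had a median log2 fold change of 0.08 and those without one 0.05, and 4 of them rose (Atp5g2, Ndufa11, Ndufs6 and Sdha) and 1 fell (Atp5o). Those with a YY1 core match had a median of -0.07, against 0.05 without one, and 2 rose and 2 fell. A match is a run of letters and not a measured binding site.

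Assembly factors, which build the complexes and do not stay in them, were described from lists. Of 13 for complex I, 0 rose and 0 fell (limma; median log2 fold change -0.04), with 1 higher and 1 lower at an unadjusted p under 0.05. For this list limma-voom called 0 and the authors' deposited table called 1 higher. Of 10 for complexes II and III, Uqcc3 and Sdhaf3 rose and Lyrm7 fell. Uqcc3, needed for complex III assembly, had 36.3, 31.5 and 35.0 FPKM in shCdGAP and 15.7, 21.0 and 24.7 FPKM in shCON, with no overlap (log2 fold change 0.74, SE 0.17, adjusted p = 0.0314, limma). Of 22 tested for complex IV, Cox20 (log2 fold change 0.67, adjusted p = 0.0234, limma) and Cox14 (0.34, adjusted p = 0.0455) rose and 0 fell, with 6 lower at an unadjusted p under 0.05, 0 lower by limma-voom and 3 lower in the authors' deposited table. Of 3 for complex V, Atpaf1 (log2 fold change -0.49, adjusted p = 0.0329, limma) and Tmem70 (-0.48, adjusted p = 0.0474) fell and 0 rose, nor was any higher at an unadjusted p under 0.05, by limma-voom or in the authors' deposited table. Cox20, which rose, and Tmem70, which fell, both lie on chromosome 1, where the median of the other genes was -0.10. With the replicate number as a block, Lyrm7 was the 1 of these 7 calls on assembly factors that held, and those on Uqcc3, Sdhaf3, Cox20, Cox14, Atpaf1 and Tmem70 were lost, with adjusted p = 0.0566 to 0.0760 (limma), in a range of 0.00163 to 0.190 over their alternatives. Lyrm7 itself was low, at 0.170, 0.177 and 0.291 FPKM in shCdGAP and 0.475, 0.536 and 0.582 FPKM in shCON. Its log2 fold change was -0.34 (adjusted p = 0.0156, limma, in a range of 0.00899 to 0.0701 over its alternatives). Of 3 further subunits or regulators outside the naming rule, Ndufab1, Usmg5 and Atpif1, none passed in limma or limma-voom, 1 was higher at an unadjusted p under 0.05 and 1 was called higher in the authors' deposited table.

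The genes for the mobile carriers ubiquinone and cytochrome c included a rise and a fall. Coq2, an early enzyme of ubiquinone synthesis, had 14.0, 13.3 and 12.7 FPKM in shCdGAP and 6.39, 6.10 and 6.55 FPKM in shCON, a difference far larger than the spread of either group (log2 fold change 0.96, SE 0.09, adjusted p = 0.00125, limma). Coq4, needed for the same pathway, had 4.31, 4.78 and 5.01 FPKM in shCdGAP and 6.82, 7.36 and 7.82 FPKM in shCON and fell (log2 fold change -0.55, SE 0.10, adjusted p = 0.0146, limma). The other 15 of 17 tested genes of this list did not pass.

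Genes that feed the chain gave 2 calls out of 17 for the TCA cycle and pyruvate dehydrogenase, both lower; limma-voom and the authors' deposited table each called 3 lower and 0 higher, and 1 gene was higher at an unadjusted p under 0.05. Cs, citrate synthase, had 173, 177 and 189 FPKM in shCdGAP and 255, 238 and 248 FPKM in shCON, without overlap (log2 fold change -0.46, SE 0.09, adjusted p = 0.0175, limma), and lies on chromosome 10. Idh3b, a subunit of isocitrate dehydrogenase, had 30.3, 25.3 and 24.8 FPKM in shCdGAP and 39.0, 44.9 and 46.6 FPKM in shCON (log2 fold change -0.68, SE 0.12, adjusted p = 0.0132, limma). Idh3b and Coq4 lie on chromosome 2 and Coq2 on chromosome 5, where the medians of the other genes were -0.19 and 0.004. Of 15 regulators of mitochondrial biogenesis 1 passed. Tfam, which packages and transcribes mitochondrial DNA and lies on chromosome 10, had 10.1, 12.97 and 15.4 FPKM in shCdGAP and 20.3, 21.4 and 20.8 FPKM in shCON (log2 fold change -0.68, SE 0.16, adjusted p = 0.0284, limma). Of 75 tested mitochondrial ribosome genes, 3 rose and 4 fell, with Mrpl39 (log2 fold change -0.77) on chromosome 16, Mrpl23 (0.86) on chromosome 7 and Mrpl10 (-0.46) on chromosome 11 at the smallest p (adjusted p = 0.00255, 0.00983 and 0.0134, limma). Across these lists and the mitochondrially encoded genes, 16 were higher and 11 lower, where 21% of all tested genes were called. Of the 16, 8 were mitochondrially encoded. Without shCON replicate 2 the counts were 6 and 1 (9.17% of all tested genes called). Without shCdGAP replicate 1 they were 40 and 28 (39.9%), and with the replicate number as a block 12 and 9 (18.2%). With the block, Coq2, Coq4, Cs, Idh3b, Tfam, Mrpl39, Mrpl23 and Mrpl10 held. Of the 7 mitochondrial ribosome calls 2 were lost (Mrpl36 and Mrpl32).

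The mitochondrially encoded partners of the members were mostly higher in shCdGAP. Of 13 such genes 11 passed the filter, 8 rose, 0 fell and 3 did not pass, with a median log2 fold change of 0.73. At an unadjusted p under 0.05 limma gave 10 higher and 0 lower, limma-voom called 9 higher and 0 lower, and the authors' deposited table called 10 higher and 0 lower. With the replicate number as a block, 7 of the 8 calls held and that on mt-Atp6 was lost. Their summed level was 31710 FPKM in shCdGAP replicate 1 and 24625.5 and 24276 FPKM in replicates 2 and 3, against 15436 to 16581 FPKM in shCON. mt-Nd5, a proton-pumping subunit of complex I, had 1321, 1179.7 and 1100.5 FPKM in shCdGAP and 566, 652 and 558 FPKM in shCON, with no overlap (log2 fold change 1.02, SE 0.12, adjusted p = 0.00271, limma). mt-Nd2, another membrane subunit of complex I, had 2313, 2118 and 2274 FPKM in shCdGAP and 1317, 1360.3 and 1361 FPKM in shCON (log2 fold change 0.73, SE 0.09, adjusted p = 0.00330, limma). mt-Cytb, the cytochrome b of complex III, had 4923, 3908 and 4126 FPKM in shCdGAP and 2176, 2498 and 2389.5 FPKM in shCON (log2 fold change 0.87, SE 0.13, adjusted p = 0.00592, limma). The nuclear-encoded members beside them had a median of 0.05 on the same scale, and the difference between the lists was not tested. mt-Nd6, on the other strand of the mitochondrial genome, did not follow, at 72.8, 84.1 and 47.4 FPKM in shCdGAP and 82.2, 131 and 89.4 FPKM in shCON (log2 fold change -0.57, adjusted p = 0.196, limma; named after its values were seen). The summed level of the list was highest in the library that stands apart, and the part of RNA quality or library preparation in it was not tested.

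Markers of other cell types were low beside the keratins Krt8 and Krt18, although Cd68 stood above the epithelial markers Epcam and Cldn3 in every library. The 6 fibroblast markers summed to 0.589 to 1.09 FPKM in shCdGAP and 0.808 to 0.928 FPKM in shCON, and the 5 endothelial markers to 0 to 0.0300 FPKM and 0.271 to 0.304 FPKM. The 6 immune markers summed to 3.01 to 9.70 FPKM in shCdGAP and 13.02 to 17.9 FPKM in shCON, of which Cd68 made up most (8.45, 4.42 and 2.37 FPKM in shCdGAP, 17.3, 12.2 and 12.3 FPKM in shCON), with Adgre1 at 0. The 4 adipocyte markers summed to 0.196 to 0.636 FPKM in shCdGAP and 1.21 to 1.76 FPKM in shCON, with Plin1 at 0.

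FPKM depends on the length assigned to a gene. The length implied by the deposited values equals the merged exon length of the GENCODE M21 annotation within 1% for 47 of 82 members, so for genes with long merged exons, such as Ndufb2 with 5628 bases, a level is low per length, and levels between members are compared with that limit. Of the 85 members 29 share exon bases with another gene. On the log2(FPKM + 1) scale a low level per length also shrinks a fold change: that of Ndufb2 was 0.43, against 0.52 with a pseudocount of 0.1 FPKM.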

How the data were processed

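RNA-seq values of 6 libraries, 3 shCdGAP and 3 shCON, were used. The submitters' processing notes name mm10 as the build and list Trimmomatic, TopHat2 2.0.13, featureCounts and DESeq2 without roles or order; annotation release and strand setting are not stated there. The authors deposited an FPKM value per gene and library for 41214 genes, already divided by size factors. Per the file headers, the same table has the authors' DESeq2 comparison, with a mean signal, a log2 fold change and its error, a score and a p-value (raw and adjusted).

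Whole reads could be recovered for 100% of the FPKM values (tolerance 1e-06) and served for depth, filters and limma-voom. The design allowed for a count model, but the table holds FPKM, so the main test was limma on log2(FPKM + 1), with trend and robust options, 2-sided and adjusted by Benjamini and Hochberg's method across the 13483 tested genes (threshold 0.05). Its fold changes understate those of low genes. Genes entered with at least 10 scaled reads in at least 3 libraries and 15 in all. The steps were tested on simulated data (dispersion 0.01). There, changes of 1.3-fold were called for 16% of genes when raised and 10% when lowered, against 98% at 2-fold in either direction. A member that did not pass may therefore still have changed by a small amount. Values are means ± SD over 3 libraries. Within a group, pairs of libraries differed beyond counting noise (chi-square per degree of freedom 3.16 to 203), so none was taken for a second deposit of another. Positions came from GENCODE M21, in which all 85 members were found. Neighbours were tested non-member genes averaging 3 FPKM or more. R 4.3.3, limma 3.58.1, Python 3.11.15, numpy 2.4.6, pandas 2.3.3, scipy 1.17.1 and matplotlib 3.10.9 were used.

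The members and the lists were chosen with earlier results of these data known. Members named in full are, in each complex, up to 4 called ones of smallest p and the 2 of highest mean FPKM, isoform families with reads, and up to 3 called genes of each list. One member that this rule takes in is not reported here by name. Same-numbered libraries of the 2 groups deviated together (correlation of deviations from the group means 0.43, 0.39 and 0.34), which is why the replicate number was treated as a pairing; it comes from the data, not the labels, and numbers 2 and 3 were not separated (0.35 between shCdGAP replicate 2 and shCON replicate 3). Alternatives were other scalings, filters, a pseudocount of 0.1 FPKM, limma-voom, the replicate block and left-out libraries.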

Additional observations from a re-analysis of the deposited data

How the results depend on the processing

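The calls, more than the fold changes, depended on the processing: all 16 called members kept their sign in every alternative run. With library size scaling the members' median log2 fold change was -0.0075. The lists then had 13 higher and 17 lower calls, where 20.9% of all tested genes were called. With quantile scaling the median was -0.028 and 11 members were lower, where 21.4% of all tested genes were called. With the replicate number as a block, 6 members were higher and 1 lower, and 9 calls were lost. Without both libraries numbered 1, 23 members were higher and 11 lower, where 48.3% of all tested genes were called, and the lists gave 46 and 41. Leaving out 1 library at a time, members higher ranged from 1 to 20, members lower from 0 to 8 and their median from 0.032 to 0.081. List genes ranged from 6 to 40 higher and 1 to 28 lower, where 9.17 to 39.9% of all tested genes were called. These fits have fewer samples. With no filter on low genes, 8 of 82 members were higher and 4 lower, where 11.2% of all genes were called; 6 of the 16 calls were lost, and 2 of the lower calls were on Cox6a2 and Cox7b2, which the filter removes. A pseudocount of 0.1 FPKM, TMM scaling, limma-voom, a minimum of 5 CPM and a fit without trend gave 11 higher and 5 or 6 lower. The correlation with neighbours lay between 0.74 and 0.84 in all alternatives. With 3 libraries a group, small changes near the spread between libraries may be missed, and members under about 10 reads a library were tested only with no filter.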
